A study of Rattus norvegicus with 9 samples.

Results

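Matricellular proteins are secreted into the extracellular matrix, where they signal to cells and arrange collagen rather than bear load. The 7 described here were Cthrc1, Postn, Sparc, Thbs2, Tnc, Fn1 and Mgp. They were taken by gene symbol from the deposited array table, which measures 14377 genes, and they are read by 8 of its 31042 probe sets. A probe set is a group of short oligonucleotides that together read 1 transcript. Sparc has 2 probe sets and the other genes have 1 each, and every one of the 8 names a single gene. Where a gene had more than 1, the brightest by its mean over the 9 arrays stands for it, and the dimmer Sparc probe set is given beside it. They were chosen as a family by name after 2 of them, Cthrc1 and Postn, had been selected on their difference between CCl4 and vehicle livers, so for all 7 genes that comparison is a description and carries no test.

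The study asked whether rottlerin, an activator of the large-conductance, calcium- and voltage-activated potassium channel (BK channel), changes liver fibrosis brought on by carbon tetrachloride (CCl4), a solvent that hepatocytes turn into a toxic radical. Total RNA from whole liver of 9 male Sprague-Dawley rats, whose age is not given in the sources used here, was hybridised to 1 array each, with 3 rats in each of 3 groups. Rats of the CCl4 group received intraperitoneal CCl4 in olive oil for 8 weeks, and those of the CCl4+Rot group received the same CCl4 and, 2 weeks after its first injection, intraperitoneal rottlerin at 2.5 mg/kg body weight. Rats of the vehicle group received neither, and what their vehicle was, and how often rottlerin was given, is not given in the sources used here. No group received rottlerin without CCl4. Rats are named here by their group and the number in their label.

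In a healthy liver, hepatocytes make fibronectin for the plasma. In a scar, proteins of this class are made mainly by myofibroblasts, most of which come from hepatic stellate cells that have lost their stored vitamin A and begun to make collagen, and transforming growth factor beta is the best known signal for this change. Cthrc1 is secreted by activated fibroblasts and bears on Wnt and transforming growth factor beta signalling. Periostin (Postn) binds integrins and helps collagen to be cross-linked. Sparc binds collagen and chaperones its assembly. Thrombospondin 2 (Thbs2) binds CD36 and CD47 and limits vessel growth, tenascin C (Tnc) appears in injured and remodelling tissue, and fibronectin (Fn1) is the scaffold on which other matrix proteins settle. Matrix Gla protein (Mgp) is carboxylated with the help of vitamin K and keeps soft tissue from calcifying.

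The RefSeq promoter table (GRCr8) held 3 of the 7 genes, and their sequences are shown because these 3 differ in detection: Postn was not detected in vehicle livers, Sparc was detected in every liver and Tnc was near the limit. Each window runs from 250 bases before to 50 bases after the gene's start, on the gene's own strand. Capitals mark TATAAA (a common form of the TATA box), CAGAC or its reverse complement (the core of the SMAD binding element) and CATTCC (the core that TEAD factors bind). Postn lies at chr2:140677811-140678110 on the plus strand, Tnc at chr5:82476082-82476381 on the minus strand, and Sparc at chr10:40038767-40039066 on the minus strand.
Postn: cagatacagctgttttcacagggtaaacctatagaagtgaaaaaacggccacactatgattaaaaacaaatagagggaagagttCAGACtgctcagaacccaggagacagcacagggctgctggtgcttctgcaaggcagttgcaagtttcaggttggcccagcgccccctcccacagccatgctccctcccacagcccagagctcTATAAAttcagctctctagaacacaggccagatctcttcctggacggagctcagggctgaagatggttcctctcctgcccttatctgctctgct
Tnc: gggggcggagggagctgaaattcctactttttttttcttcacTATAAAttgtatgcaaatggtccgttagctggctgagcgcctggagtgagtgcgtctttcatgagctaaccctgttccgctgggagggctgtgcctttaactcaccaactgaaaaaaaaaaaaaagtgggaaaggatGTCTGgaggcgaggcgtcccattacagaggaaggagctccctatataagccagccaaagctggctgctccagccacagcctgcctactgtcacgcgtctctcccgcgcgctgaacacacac
Sparc: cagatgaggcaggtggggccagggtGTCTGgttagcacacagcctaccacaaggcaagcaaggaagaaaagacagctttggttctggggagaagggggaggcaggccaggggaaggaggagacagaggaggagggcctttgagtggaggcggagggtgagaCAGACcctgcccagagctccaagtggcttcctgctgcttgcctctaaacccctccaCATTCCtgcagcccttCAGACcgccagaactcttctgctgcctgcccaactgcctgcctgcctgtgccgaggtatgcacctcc
The Postn window holds TATAAA at position -44 and CAGAC at position -166, counted from the gene's start. The Tnc window holds TATAAA at position -208 and CAGAC at position -71, and the Sparc window holds CAGAC at 3 places and CATTCC at position -33. Between its CAGAC match and the gene's start, the Tnc window also holds tatataa, another form of the TATA box. That form was not searched for and is left in small letters. The search, on both strands, was also made for CCAAT (the CAAT box) and for TGANTCA (the AP-1 site), which are in none of the 3 windows, and no match overlaps another. Of 33469 promoters of the same length, CAGAC is held by 50.1%, TATAAA by 14.2%, the TEAD core by 14.2%, the CAAT box by 37.5% and the AP-1 site by 7.33%. The matches are letters in a window and were not tested as sites. The promoters of Cthrc1, Thbs2, Fn1 and Mgp are not shown. The array table places Cthrc1 on chromosome 7, Postn on 2, Sparc on 10, Thbs2 on 1, Tnc on 5, Fn1 on 9 and Mgp on 4, and names no genome build.

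The arrays held 12714 to 16849 probe sets called present. CCl4 rat 3 stood apart, with the 12714 present calls against 15550 to 16849 on the other 8 arrays, and with a median log2 signal of 7.81 against 6.79 to 7.01. Over the 11231 probe sets with a present call on each of the 9 arrays its median was 9.53, inside the range of 9.51 to 9.58, while the 10087 probe sets called absent on all of the other 8 arrays had a median of 5.72 on it. The same measure taken for each of those 8 arrays in turn gave 4.12 to 4.63. Its dim signals were therefore high and its bright signals were not. Of 7 hepatocyte markers (albumin and 6 others) all were called present on all 9 arrays, with a mean log2 signal of 14.28 to 14.50 on 8 arrays and 13.69 on that of CCl4 rat 3. In RNA from whole liver, more cells of a type and more RNA per cell cannot be told apart. Precision is limited by there being 3 arrays a group, for which an exact two-sided permutation test can give no p below 0.1.

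Cthrc1 and Postn were not detected in any vehicle liver and were detected in all 6 livers that had received CCl4, with or without rottlerin. The log2 signal of Cthrc1 was 4.93, 4.01 and 5.05 in vehicle rats 3, 4 and 5, it was 7.65, 8.51 and 8.33 in CCl4 rats 1, 2 and 3, and it was 8.07, 8.01 and 8.15 in CCl4+Rot rats 4, 5 and 6. The vehicle livers lay below all others, and the 3 CCl4+Rot livers fell inside the range of the CCl4 livers. Group means were 4.66 ± 0.571 (SD, n = 3) for vehicle, 8.16 ± 0.456 for CCl4 and 8.08 ± 0.0684 for CCl4+Rot. By the means, Cthrc1 was 11.3-fold above vehicle in CCl4 livers and 10.7-fold above it in CCl4+Rot livers. These folds are bounds only in that the vehicle calls were absent. They do not allow for the spread between rats, so smaller differences remain possible.

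Postn, on another chromosome, followed the same course. Its log2 signal was 5.65, 4.83 and 4.61 in vehicle rats 3, 4 and 5, it was 8.13, 9.33 and 8.12 in CCl4 rats 1, 2 and 3, and it was 8.36, 9.06 and 8.51 in CCl4+Rot rats 4, 5 and 6. Vehicle livers again lay below all others, CCl4 rat 2 was the highest, and the CCl4+Rot livers lay among the CCl4 livers. Means were 5.03 ± 0.549 (SD, n = 3), 8.53 ± 0.695 and 8.64 ± 0.369. They set Postn 11.3-fold above vehicle with CCl4 and 12.3-fold above it with CCl4 and rottlerin, which are bounds of the same kind.

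Sparc and Mgp were detected in every liver, vehicle livers included. The log2 signal of Sparc was 10.79, 10.77 and 10.26 in vehicle rats 3, 4 and 5, it was 11.68, 12.26 and 11.23 in CCl4 rats 1, 2 and 3, and it was 11.31, 11.94 and 11.82 in CCl4+Rot rats 4, 5 and 6. No CCl4 or CCl4+Rot liver reached down to a vehicle liver. CCl4 livers were 2.17-fold above vehicle (means 11.72 ± 0.513 and 10.60 ± 0.301, SD, n = 3), and CCl4+Rot livers had a mean of 11.69 ± 0.338.

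The dimmer Sparc probe set gave another order of the groups. It read 8.95, 7.70 and 8.45 in vehicle rats 3, 4 and 5, 8.37, 9.74 and 8.23 in CCl4 rats 1, 2 and 3, and 9.96, 9.65 and 9.82 in CCl4+Rot rats 4, 5 and 6. Here the CCl4 livers overlapped the vehicle livers, with only CCl4 rat 2 above them, while the CCl4+Rot livers lay above all vehicle livers and above CCl4 rats 1 and 3. The 2 Sparc probe sets thus agree that CCl4+Rot livers were above vehicle livers and disagree on the CCl4 livers.

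The log2 signal of Mgp was 11.65, 11.26 and 11.53 in vehicle rats 3, 4 and 5, it was 12.61, 13.42 and 11.91 in CCl4 rats 1, 2 and 3, and it was 13.07, 13.51 and 13.48 in CCl4+Rot rats 4, 5 and 6. CCl4 livers all lay above vehicle livers but were far apart from each other, and CCl4+Rot rats 5 and 6 were above all CCl4 livers. The vehicle mean was 11.48 ± 0.197 (SD, n = 3), the CCl4 mean 12.65 ± 0.756 and the CCl4+Rot mean 13.36 ± 0.246.

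Tnc and Thbs2 were near the limit of detection. The log2 signal of Tnc was 4.75, 5.48 and 5.43 in vehicle rats 3, 4 and 5, it was 5.98, 7.02 and 7.59 in CCl4 rats 1, 2 and 3, and it was 6.56, 6.61 and 6.30 in CCl4+Rot rats 4, 5 and 6. It was called absent in all vehicle livers, absent, present and marginal in CCl4 rats 1, 2 and 3, and present in all CCl4+Rot livers. Means were 5.22 ± 0.408 (SD, n = 3), 6.86 ± 0.815 and 6.49 ± 0.167. By these means Tnc was 3.12-fold above vehicle with CCl4, a value that rests on 1 present call. With CCl4 and rottlerin it was 2.41-fold above vehicle. Both folds are bounds only in that the vehicle calls were absent.

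The log2 signal of Thbs2 was 6.86, 6.93 and 7.05 in vehicle rats 3, 4 and 5, it was 6.77, 8.18 and 8.30 in CCl4 rats 1, 2 and 3, and it was 8.09, 7.91 and 8.35 in CCl4+Rot rats 4, 5 and 6. CCl4 rat 1 lay below every vehicle liver and the other 2 CCl4 rats above, so those groups overlapped. The only present call on 9 arrays was that of CCl4+Rot rat 6, and CCl4 rat 2 was called marginal. With no present call in either group, no fold is given for CCl4 against vehicle. By the means, CCl4+Rot livers were 2.24-fold above vehicle (8.12 ± 0.219 and 6.95 ± 0.0975, SD, n = 3). This fold is a bound only in that the vehicle calls were absent.

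Fn1 differed from the other 6 genes in its direction and in how little it moved. Its log2 signal was 14.38, 14.26 and 14.31 in vehicle rats 3, 4 and 5, it was 14.23, 14.15 and 14.04 in CCl4 rats 1, 2 and 3, and it was 14.36, 14.45 and 14.36 in CCl4+Rot rats 4, 5 and 6. The CCl4 livers lay just below all livers of the other groups, by a log2 difference of -0.18 from vehicle, and this difference was 0.01 after quantile normalization and -0.54 after centring each array on its median. The direction of Fn1 thus depends on the scaling of the arrays, while the mean signals of the other 6 genes stayed above vehicle in CCl4 livers under both scalings.

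**Figure D1:**
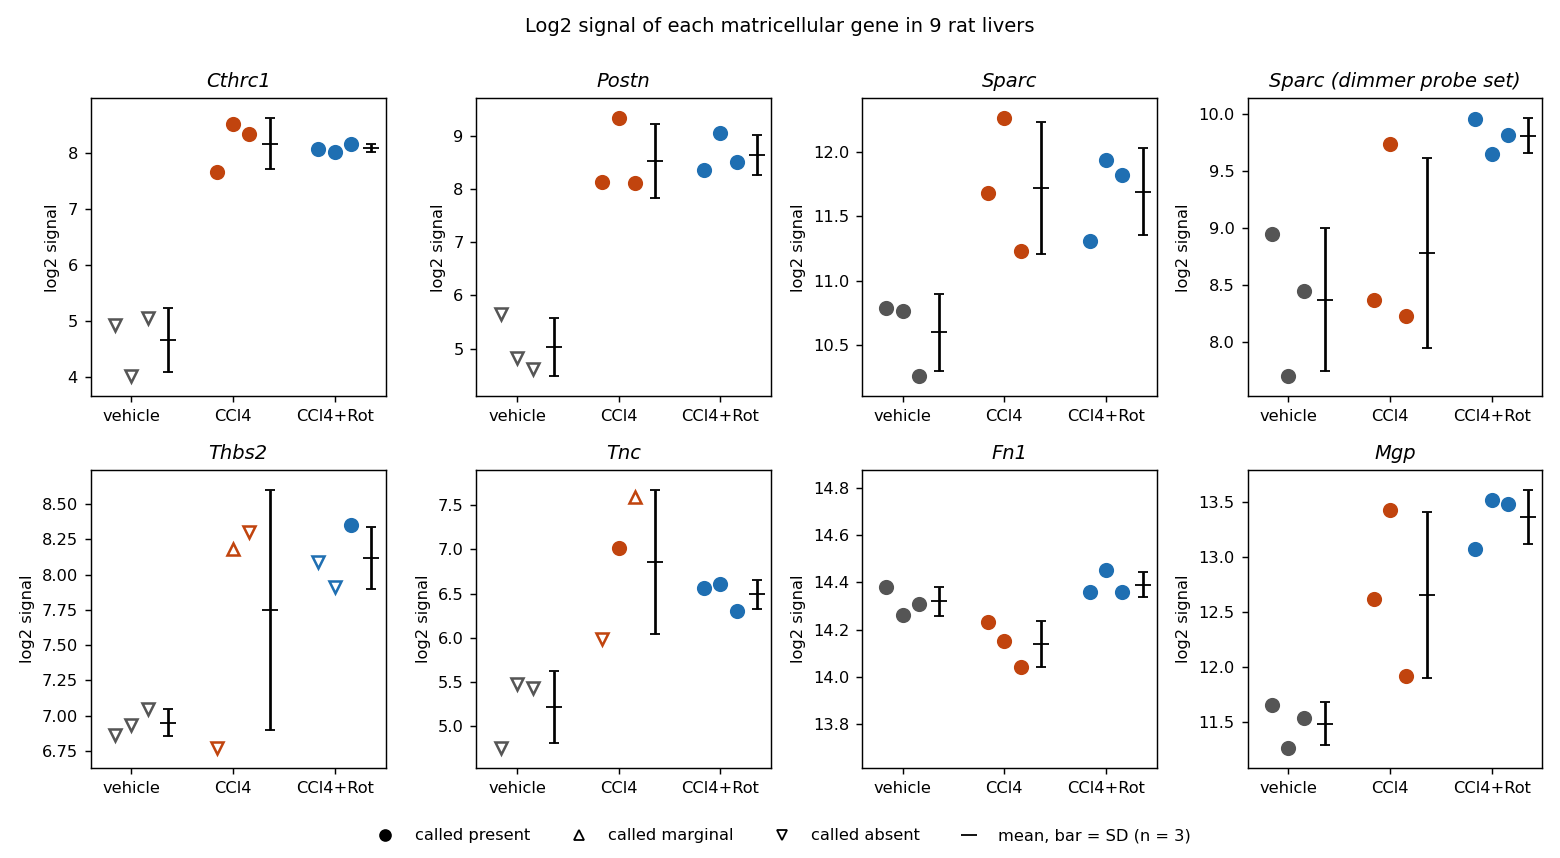
The log2 signal of each gene in each rat is plotted by group, with the dimmer Sparc probe set in a panel of its own and with an axis of its own in every panel. Filled circles were called present, upward triangles marginal and open downward triangles absent, and the bar beside each group is the mean and SD of 3 rats. Cthrc1 and Postn pass from absent calls near 5 in vehicle livers to present calls near 8 in the other 6 livers, and Fn1 stays between 14.04 and 14.45.

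Between CCl4 and vehicle livers, 5 of the 7 genes (Cthrc1, Postn, Sparc, Tnc and Mgp) had every CCl4 liver above every vehicle liver, beside 11.1% of all probe sets. Fn1 had every CCl4 liver below, beside 7.14%. A higher mean by at least 1.5-fold was found in 6 of the 7, Fn1 being the exception, beside 28.0% of all probe sets, and a lower mean by that much in 0, beside 7.27%. Thbs2 counts there by signals that were not called present in either group. Among the genes detected in every liver, Mgp and Sparc had log2 differences of 1.17 and 1.12, which were 1.53 and 1.36 without CCl4 rat 3. Fn1, also detected in every liver, had -0.18, and -0.13 without CCl4 rat 3. The dimmer Sparc probe set gave 0.41, with overlap. For Cthrc1, Postn and Tnc only the bounds given above are known. The log2 difference of signals was 1.64 for Tnc and 0.80 for Thbs2 with all 9 arrays, and 1.28 and 0.53 without CCl4 rat 3. The median difference was 1.17 over the 7 genes, 0.18 over all probe sets and 0.04 over the 17545 called present on at least 3 arrays. Since 2 of these genes were noticed in this comparison, nothing is read from these counts. After centring each array on its median, only Cthrc1, Postn and Tnc, 3 of the 7, had CCl4 livers wholly above vehicle livers. The share of all probe sets after that centring is not given here, so nothing is read from this count either. The mean log2 signal of 14 myofibroblast markers was 8.76 to 9.15 for vehicle, 9.72 to 10.32 for CCl4 and 10.16 to 10.40 for CCl4+Rot. It was higher in CCl4 than in vehicle livers, as were the means of 6 of the 7 genes, Fn1 being the exception. Its part in the values of the 7 genes was not tested.

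The comparison of CCl4+Rot with CCl4 livers is the one that bears on rottlerin. None of the 7 genes passed the test in it, and the group means of Cthrc1, Postn and, by its brighter probe set, Sparc were within 0.12 of each other on the log2 scale. The dimmer Sparc probe set had means of 8.78 and 9.81. The test was limma over all probe sets, and a call needs an adjusted p (Benjamini-Hochberg) below 0.05 and a difference of at least 1.5-fold. It called 0 of the 7 genes higher, beside 0.0% of all probe sets, and 0 lower, beside 0.00322%. A second limma fit, with a trend of the spread on the signal and robust estimation (the robust fit), also called 0, beside 0.00322% higher and 0.0% lower. An unadjusted limma p below 0.05 was found in 0 of the 7 genes, beside 1.97% of all probe sets higher and 4.65% lower. By at least 1.5-fold, only Mgp was higher, beside 6.81%, and 0 were lower, beside 24.1%. The comparison uses the CCl4 arrays through which Cthrc1 and Postn had been noticed.

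The log2 difference of Cthrc1 was -0.08 (SE 0.335, 95% interval -0.86 to 0.70, limma adjusted p = 0.959). That of Postn was 0.12 (SE 0.424, interval -0.87 to 1.10, limma adjusted p = 0.954). As folds, the interval of Cthrc1 spans 0.549 to 1.62 and that of Postn 0.547 to 2.15, so changes of those sizes in either direction remain possible. Without CCl4 rat 3 the log2 differences were -0.00 and -0.09.

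For Sparc the log2 difference was -0.03 (interval -0.77 to 0.70, limma adjusted p = 0.983) by the brighter probe set and 1.03 (interval -0.04 to 2.11, adjusted p = 0.751) by the dimmer, and neither passed. Mgp had the largest difference read by a gene's main probe set, 0.71 (SE 0.369, interval -0.15 to 1.57, limma adjusted p = 0.765), which was 0.34 without CCl4 rat 3 and 1.10 without CCl4 rat 2. Thbs2 had a log2 difference of 0.37 (limma adjusted p = 0.832) and Tnc of -0.37 (adjusted p = 0.833), and without CCl4 rat 3, the highest of its group for both genes, they became 0.64 and -0.01. That of Tnc was -0.81 without CCl4 rat 1. By their main probe sets, Fn1 was the only gene whose CCl4+Rot livers all lay above the CCl4 livers, as 4.73% of all probe sets did, and 0 of the 7 lay wholly below, as 6.88% did. Fn1 had a log2 difference of 0.25 (interval -0.08 to 0.58, limma adjusted p = 0.765). The median over the 7 genes was 0.12, against -0.12 over all probe sets and -0.01 over those called present on at least 3 arrays.

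Compared with vehicle livers, Cthrc1 was the only 1 of the 7 genes called higher in CCl4+Rot livers by limma, and Postn and Mgp were called besides by the robust fit. Over all probe sets limma called 0.0161% higher and the robust fit 0.689%. Neither called any of the 7 lower, beside 0.00966% and 0.087% of all probe sets. This comparison shares the vehicle arrays with the one through which Cthrc1 and Postn had been noticed. The log2 difference of Cthrc1 was 3.42 (SE 0.335, interval 2.64 to 4.20, limma adjusted p = 0.0427, robust adjusted p = 0.00229). For Postn it was 3.62 (SE 0.424, interval 2.63 to 4.60, limma adjusted p = 0.0908, robust adjusted p = 0.00229), and for Mgp 1.88 (SE 0.369, interval 1.02 to 2.74, limma adjusted p = 0.195, robust adjusted p = 0.0136). In folds, the limma interval of Cthrc1 spans 6.21 to 18.3 and that of Postn 6.19 to 24.3. Both begin below the folds of the means given above.

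The limma call of Cthrc1 was lost when any one of 7 arrays was left out, with adjusted p from 0.0682 to 0.301, and held without CCl4 rat 1 or CCl4 rat 2. Postn passed limma without CCl4 rat 2 (adjusted p = 0.0368) and in no other such fit, up to an adjusted p of 0.424. It also passed when dim probe sets were filtered out, at 0.0381 without the lowest 30% and 0.0195 with those present on at least 3 arrays. Postn was called present only in livers that had received CCl4. It met the filter on present calls through the groups where it is high, so nothing is read from that smaller p. The robust fit called Cthrc1 and Postn with any 1 of the 9 arrays left out, at adjusted p of at most 0.0284. Mgp was called by it in 5 of the 9, and the call was lost without vehicle rat 4, vehicle rat 5, CCl4+Rot rat 5 or CCl4+Rot rat 6, with adjusted p up to 0.103. It also called Sparc without CCl4 rat 2 or CCl4 rat 3, and Thbs2 without CCl4 rat 1. The robust fits with 1 array left out were added after seeing the data. All of them reuse vehicle arrays through which Cthrc1 and Postn had been noticed, so they do not lift that limit. The log2 difference itself held its size, between 3.09 and 3.61 for Cthrc1, 3.41 and 3.93 for Postn, and 1.77 and 2.02 for Mgp.

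Sparc, Tnc and Thbs2 lay above vehicle in every CCl4+Rot liver without passing the adjusted test. Their log2 differences were 1.08 (SE 0.316, limma adjusted p = 0.383), 1.27 (SE 0.411, adjusted p = 0.438) and 1.17 (SE 0.395, adjusted p = 0.458). The dimmer Sparc probe set gave 1.45 (adjusted p = 0.429). With Cthrc1, Postn and Mgp they make 6 of 7 genes without overlap, beside 11.9% of all probe sets. The same 6 were at least 1.5-fold above vehicle, beside 15.4%, and had an unadjusted limma p below 0.05, beside 5.63%. In the other direction the counts were 0 of 7 throughout, beside 9.15% without overlap, 11.5% at 1.5-fold and 2.68% by the unadjusted p. Cthrc1 and Postn had been noticed through the same vehicle arrays, so nothing is read from these counts. Fn1 was the exception with 0.07 (interval -0.26 to 0.40, adjusted p = 0.966), and with -0.04 after centring on the median. In folds, the limma interval of Tnc spans 1.24 to 4.68 and that of Thbs2 1.19 to 4.24.

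**Figure D2:**
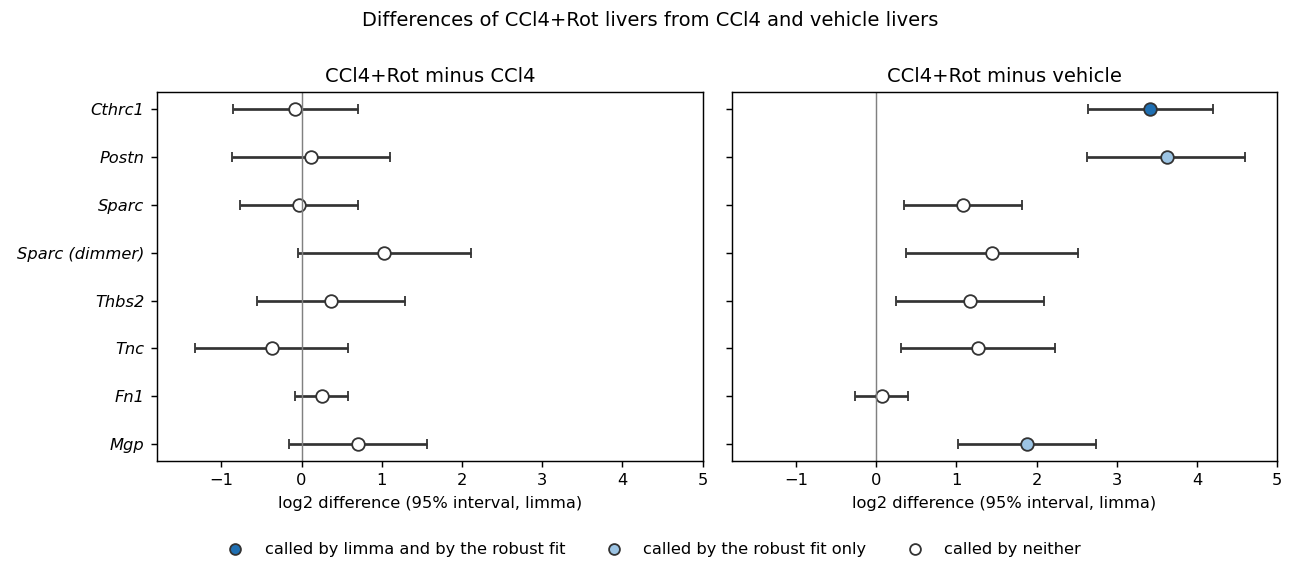
Points are log2 differences of CCl4+Rot livers from CCl4 livers (left) and from vehicle livers (right), with 95% limma intervals, 3 rats a group, on the same axis. On the left all 8 intervals include 0, from -0.37 for Tnc to 1.03 for the dimmer Sparc probe set. On the right Cthrc1 and Postn stand at 3.42 and 3.62, the filled points mark calls, and Fn1 is at 0.07.

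The CCl4 livers differed more among themselves than the CCl4+Rot livers did. The SD over 3 rats was lower in the CCl4+Rot group for all 7 genes, as it was for 73.0% of all probe sets and for 75.3% of those called present on at least 3 arrays. For Cthrc1 the SD was 0.456 against 0.0684, for Thbs2 0.852 against 0.219, for Tnc 0.815 against 0.167 and for Mgp 0.756 against 0.246. The median SD over all probe sets was 0.567 for CCl4, 0.295 for CCl4+Rot and 0.295 for vehicle. Leaving out CCl4 rat 3 brought the range of log2 signals in the CCl4 group from 1.51 to 0.819 for Mgp and from 1.61 to 1.04 for Tnc, while that of Cthrc1 stayed at 0.866, against 0.136 in the CCl4+Rot group. No test of these spreads was run.

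The order of the rats was not the same for every gene. CCl4 rat 2 was the highest of its group for Cthrc1, Postn, Sparc and Mgp. CCl4 rat 3 was the highest for Thbs2 and Tnc and the lowest for Postn, Sparc, Fn1 and Mgp, and CCl4 rat 1 was the lowest for Cthrc1, Thbs2 and Tnc. Thbs2 and Tnc are the genes with the fewest present calls, and dim signals as a whole were high on the array of CCl4 rat 3. Its part in their values was not tested. Among CCl4+Rot rats, rat 5 was the highest for 5 genes (Postn, Sparc, Tnc, Fn1 and Mgp) and rat 4 for none.

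**Figure D3:**
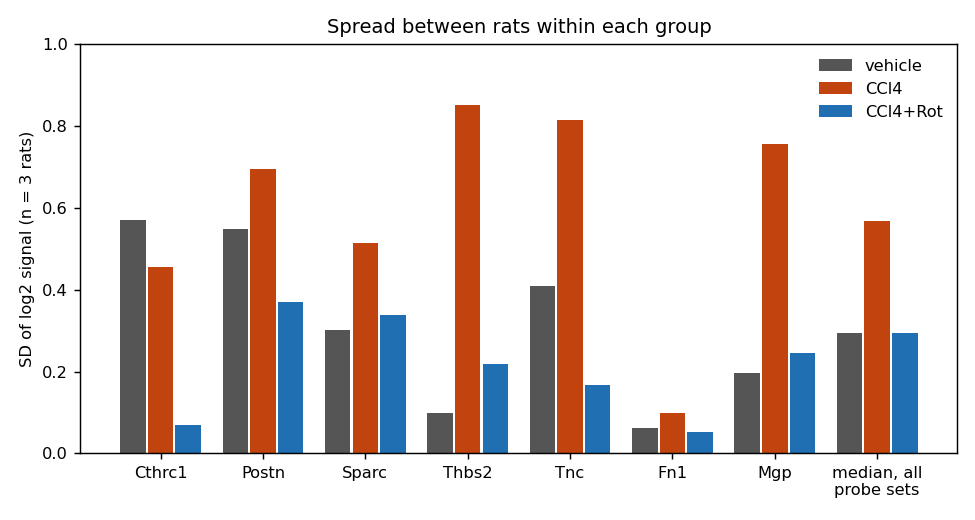
Bars give the SD of the log2 signal over the 3 rats of each group for each gene, and for comparison the median SD over all probe sets. The CCl4+Rot bar is below the CCl4 bar for all 7 genes, by most for Thbs2 (0.852 against 0.219) and Tnc (0.815 against 0.167), and the last set of bars shows the same order over the whole array (0.567 against 0.295).

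Likeness between genes was measured as the root mean square difference of their log2 signals over the 9 arrays, each gene centred on its own mean, so that 0 is an identical course. Among the 7 genes the closest pairs were Sparc with Mgp (0.425), Thbs2 with Tnc (0.46) and Cthrc1 with Postn (0.468), and the farthest was Postn with Fn1 (1.76). Of 9942 other genes called present on at least 3 arrays, those most like Cthrc1 were Gsta3, a glutathione transferase (0.498), Col1a1, the main chain of type I collagen (0.615), Gpnmb, a macrophage glycoprotein (0.616), Tnfrsf9, a costimulatory receptor of T cells (0.647), and Eln, elastin (0.647). Those most like Postn were Tnfrsf9 (0.428), Gpnmb (0.541), the leukocyte receptor Lilrb4 (0.617), Col1a1 (0.621) and Clec7a, a receptor of myeloid cells for fungal glucans (0.661). Col1a1, Gpnmb and Tnfrsf9 stood on both lists. All points share the same 9 arrays and the step from vehicle to CCl4, and the values describe these libraries only.

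The wider family, their receptors and their regulators were followed in 3 lists, of which 62 genes were measured. The robust fit called 4 of the 62 between CCl4 and vehicle livers, 0 between CCl4+Rot and CCl4 livers and 6 between CCl4+Rot and vehicle livers. Over all probe sets it called 0.693% higher and 0.428% lower in CCl4 than in vehicle livers, and 0.689% higher and 0.087% lower in CCl4+Rot than in vehicle livers. Limma called 0 of the 62 in each of the 3 comparisons.

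Of 30 relatives of the matricellular genes, the median log2 difference was 0.50 between CCl4 and vehicle livers, 0.17 between CCl4+Rot and CCl4 livers and 0.43 between CCl4+Rot and vehicle livers. Spp1, osteopontin, a secreted ligand of integrins and CD44, had the largest signal difference of the 30 between CCl4 and vehicle livers. Its log2 signal was 5.92, 6.42 and 6.26 in vehicle rats 3, 4 and 5, it was 12.11, 9.90 and 11.58 in CCl4 rats 1, 2 and 3, and it was 10.46, 8.11 and 8.74 in CCl4+Rot rats 4, 5 and 6. All CCl4 livers were above all vehicle livers, and CCl4+Rot livers lay between with CCl4+Rot rat 4 above CCl4 rat 2. It was called present in no vehicle liver and in all 6 others. By the means, CCl4 livers stood 32.0-fold above vehicle livers, a bound only in that the vehicle livers had no present call. The robust fit called this difference (robust adjusted p = 0.0247, limma adjusted p = 0.168). CCl4+Rot livers differed from CCl4 livers by -2.09 (limma adjusted p = 0.724), which did not pass.

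Smoc1, a Sparc relative, was called lower in CCl4 than in vehicle livers by the robust fit, with a log2 difference of -1.04 (robust adjusted p = 0.0363, limma adjusted p = 0.243). So was Tgfbi, a relative of periostin that binds integrins, with -0.59 (robust adjusted p = 0.0406, limma adjusted p = 0.249). Tgfbi is built of the same fasciclin domains as Postn, and the signals of the pair went opposite ways. Between CCl4+Rot and vehicle livers the robust fit called Efemp2, which elastic fibres need, higher by 1.65 (robust adjusted p = 0.0196, limma adjusted p = 0.192) and Ecm1 lower by a log2 difference of -1.40 (robust adjusted p = 0.0289, limma adjusted p = 0.277). It also called Fbln1, fibulin 1, higher (robust adjusted p = 0.0421, limma adjusted p = 0.191), but no array of either group called this gene present, so no size is given. Efemp1, fibulin 3, spread widely among CCl4 livers, at 7.37, 5.06 and 2.60 in CCl4 rats 1, 2 and 3 against 7.89, 8.15 and 7.23 in CCl4+Rot rats 4, 5 and 6, a log2 difference of 2.75 that did not pass (limma adjusted p = 0.749) and was 1.54 without CCl4 rat 3. Thbs4, a relative of Thbs2, had a difference of 1.30 in the same comparison (limma adjusted p = 0.747), and 0.73 without CCl4 rat 3. Of the 30 relatives, 8 were present on no array, among them Comp, Tnr, Tnn and Bglap.

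Of 16 receptors and partners, 2 passed the robust fit in a comparison with vehicle. Itga8, the integrin chain of stellate cells that binds tenascin and fibronectin, read 7.62, 6.93 and 7.32 in vehicle rats 3, 4 and 5, 8.26, 10.04 and 8.45 in CCl4 rats 1, 2 and 3, and 9.17, 9.46 and 9.80 in CCl4+Rot rats 4, 5 and 6. Its groups did not overlap with vehicle, and the robust fit called it higher in CCl4+Rot than in vehicle livers, by 2.18 (robust adjusted p = 0.0215, limma adjusted p = 0.232). Cd44, the receptor of hyaluronan and osteopontin, was called higher in CCl4 than in vehicle livers, by 1.24 (robust adjusted p = 0.0296, limma adjusted p = 0.186). Cd47, a receptor of thrombospondins, differed by 0.34 between CCl4+Rot and CCl4 livers (limma adjusted p = 0.765). The syndecans Sdc1 and Sdc4, cell surface proteoglycans that bind fibronectin, had differences of -0.38 and -0.31 between CCl4 and vehicle livers and of -0.08 and -0.31 between CCl4+Rot and CCl4 livers, and none passed. The median over the 16 was 0.12 in each of these comparisons and 0.22 between CCl4+Rot and vehicle livers.

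Of 16 genes of the transforming growth factor beta axis and of Gla carboxylation, 2 passed the robust fit, both between CCl4+Rot and vehicle livers. Ltbp1, which holds latent transforming growth factor beta in the matrix, was higher by 1.80 (robust adjusted p = 0.00732, limma adjusted p = 0.191), from 9.00, 8.54 and 8.41 in vehicle rats 3, 4 and 5 to 10.07, 10.40 and 10.87 in CCl4+Rot rats 4, 5 and 6. Tgfb3, one of the ligands, was higher by 1.64 (robust adjusted p = 0.0465, limma adjusted p = 0.297). Both were also above vehicle in all 3 CCl4 livers, by 1.12 and 1.44, which did not pass. Bmp1, the protease that trims procollagen, was above the CCl4 livers in every CCl4+Rot liver, by 0.67 (limma adjusted p = 0.747), and the co-receptor Tgfbr3 had a difference of -0.67 (limma adjusted p = 0.788) that rested on CCl4 rat 3, at 8.90 against 6.78 and 7.25 in CCl4 rats 1 and 2, and was -0.04 without it. Tgfb1, Tgfb2 and Tgfbr2 were called present on no array by any of their probe sets.

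Markers of other cells were read on the same arrays to set beside the 7 genes. All 14 myofibroblast markers were measured, from a list chosen with earlier results of these data known. The robust fit called 5 higher in CCl4 than in vehicle livers, beside 0.693% of all probe sets. It called 0 between CCl4+Rot and CCl4 livers, beside 0.00322% higher and 0.0% lower. In CCl4+Rot against vehicle livers it called 8 higher, beside 0.689%. The median log2 differences in these 3 comparisons were 1.07, 0.36 and 1.29. By the robust fit, Col1a1 was called higher by 2.29 in CCl4 than in vehicle livers (robust adjusted p = 0.00502, limma adjusted p = 0.171) and by 2.74 in CCl4+Rot than in vehicle livers (robust adjusted p = 0.00208, limma adjusted p = 0.11), and Timp1, an inhibitor of matrix proteases, was called higher by 1.60 in CCl4 than in vehicle livers (robust adjusted p = 0.00343, limma adjusted p = 0.156). In the comparison of CCl4+Rot with CCl4, 10 of these 14 markers had a difference above 0, up to 0.66 for Dcn, and 4 had one below 0, namely Timp1 (-0.43), Acta2 (-0.28), Tagln (-0.12) and Des (-0.02), and none passed. Without CCl4 rat 3 the differences of Acta2, Tagln and Des were above 0, at 0.16, 0.26 and 0.14. That of Timp1 was then -0.48 and that of Dcn 0.29.

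The mean log2 signal of 6 macrophage markers was 10.30 to 10.92 for vehicle, 10.58 to 11.05 for CCl4 and 10.96 to 11.47 for CCl4+Rot livers. That of 5 endothelial markers was 9.98 to 10.01, 9.67 to 10.07 and 10.18 to 10.30, that of 6 quiescent stellate cell markers 8.16 to 8.57, 7.90 to 8.94 and 8.15 to 8.61, and that of 7 portal fibroblast and smooth muscle markers 6.42 to 6.72, 6.58 to 7.17 and 6.58 to 7.14. The 4 cholangiocyte markers ran from 6.04 to 6.44, 5.93 to 7.0 and 6.02 to 6.44. Apart from the myofibroblast list, the CCl4 livers overlapped the vehicle livers in each of these lists. The CCl4+Rot livers lay above all vehicle livers in the macrophage and endothelial lists, and in the endothelial list above all CCl4 livers too. The defining markers Thy1, Krt7 and Ngfr were called present on no array by any of their probe sets. The robust fit called none of the macrophage, endothelial, quiescent stellate, hepatocyte or cholangiocyte markers in any of the 3 comparisons, and limma called no marker of any list. Of the portal list the robust fit called Eln higher in CCl4 than in vehicle livers (robust adjusted p = 0.046, limma adjusted p = 0.202). By the means it was 5.85-fold higher, a bound only in that the vehicle livers had no present call. The part of these cells in the values of the 7 genes was not tested.

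**Figure D4:**
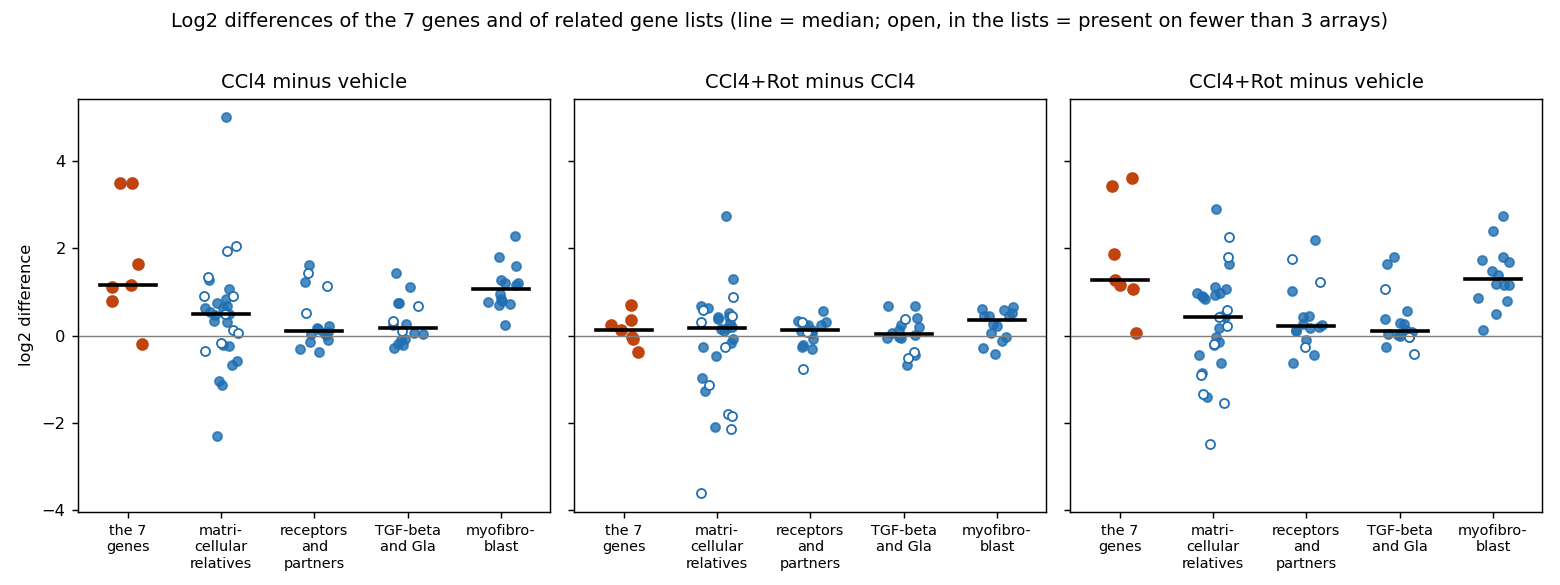
Each point is the log2 difference of 1 gene in the comparison named above the panel, for the 7 genes and 4 lists, and each line is the median of its list. In the 4 lists, open points mark genes called present on fewer than 3 arrays. The medians of the 7 genes and of the myofibroblast markers lie at 1.17 and 1.07 in the left panel and at 1.27 and 1.29 in the right one, and all 5 medians in the middle panel lie between 0.04 and 0.36.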

How the data were processed

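The authors deposited 1 table of log2 signals and detection calls from Affymetrix rat expression arrays (present, marginal, absent) for 31099 probe sets over 9 arrays. The submitters' processing notes name MAS5 and affy, with no version given. The antilogs have a trimmed mean of 500.0 on each array. The deposited log2 values were used unchanged.

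The 57 control probe sets were left out and limma 3.58.1 (R 4.3.3) was run on the other 31042, as 3 group means over all 9 arrays and no covariate. P values were adjusted (Benjamini-Hochberg) over all of them. The fit was also run on simulated data with the same spread in all 3 groups. The CCl4 group spread more than the others here, so that run does not show how the fit behaves on these arrays. The 1.5-fold threshold is that of the methods. The robust fit used trend and robust estimation (statmod 1.5.0). Where 1 group had no present call, its signals were raised to the lowest present signal of their array where lower. The fold of the means was then written as a bound for detection, which does not allow for the spread between rats. For Cthrc1, Postn, Thbs2 and Tnc the raising left the group means unchanged. The genes and lists were chosen with earlier results of these data known. From each list the text may name the 3 genes with the largest difference between CCl4 and vehicle and between CCl4+Rot and CCl4 livers among those present on at least 3 arrays. Genes called by the robust fit alone, Eln, Acta2, Tagln and Des were named after their values were seen. The alternatives were quantile normalization, median centring, filters on dim probe sets, fits of 2 groups, the methods' t-test, other fold thresholds, other probe sets, each array left out, and the rat's number as a block. The robust fit with each array left out was added after seeing the data. Rats of the same number were not paired by these data, with correlations of their deviations of 0.02, 0.04 and 0.07.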

Additional observations from a re-analysis of the deposited data

How the results depend on the processing

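The count of the 7 genes called higher in CCl4+Rot than in vehicle livers was 1 and became 0 with quantile normalization, median centring, only the groups compared or the methods' t-test adjusted, 2 without the lowest 30% of probe sets or with those present on at least 3 arrays, 3 with the robust fit and 6 with the methods' t-test unadjusted, and ran from 0 to 2 with 1 array left out. With the filters fewer probe sets were tested, and otherwise the cause was not tested. Thbs2, present on 1 array, was not tested among probe sets present on at least 3 arrays. Cthrc1 and Postn met that filter only through livers that had received CCl4. The robust fit called 0.689% of all probe sets higher. For the other alternatives the share of all probe sets is not given here, so nothing is read from their counts.

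The relatives called (0 of 62 by limma) became, in CCl4 against vehicle livers, 2 with probe sets present on at least 3 arrays, 4 with the robust fit and 11 with the t-test unadjusted. They became 2 in CCl4+Rot against CCl4 livers with the t-test unadjusted, and 6 (robust fit) and 17 (t-test unadjusted) in CCl4+Rot against vehicle livers. For the filter and the unadjusted t-test the share of all probe sets is not given here, so nothing is read from those counts. The genes with CCl4 above vehicle livers and no overlap went from 5 to 3 with median centring, for which the share of all probe sets is not given here.

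Among the differences with a test, every reversed one but 1 was between CCl4+Rot and CCl4 livers. Between CCl4 and vehicle livers, where no test was run, Fn1 also changed sign, from -0.18 to 0.01 with quantile normalization. Between CCl4+Rot and CCl4 livers, the difference of Cthrc1 was 0.02 with quantile normalization and 0.16 with median centring, and -0.34 to 0.09 with 1 array left out. In the same comparison, that of Sparc was 0.21 with median centring, 0.50 as the mean of its probe sets and 1.03 by its other probe set. It was -0.28 to 0.23 with 1 array left out. With 1 array left out, the differences between CCl4+Rot and CCl4 livers ran from -0.09 to 0.52 for Postn and from -0.12 to 0.64 for Thbs2. Fn1 in CCl4+Rot against vehicle livers was -0.04 with median centring. With the rat's number as a random replicate block the consensus correlation was -0.033 and the count of genes called against vehicle stayed at 1, and no other call of the 7 genes changed.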
